A study of Mus musculus with 2 samples.

Results

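The subunits of the ER membrane complex (EMC) were compared between cortical thymic epithelial cells (cTECs) that express Aire ectopically and control cTECs. The gene set was built around Emc3, which was picked because its level differed between the arrays, and it holds the other subunits as its partners. Of 9 listed genes, 8 had a probe set annotated to that gene alone, each with 1 such probe set, among 19938 genes measured in this way. Emc1 had only a probe set that it shares with the neighbouring gene Ubr4, so no value is given for it as a gene. Mmgt1, the subunit also called Emc5, was not in the set and was added, which brought the measured subunits to 9.

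Each genotype was measured on 1 Affymetrix array. The Tg array held cTEC RNA of Aire transgenic NOD mice, in which the promoter of the thymoproteasome gene β5t (Psmb11) drives Aire in a semi-knockin allele, and the non-Tg array held that of control NOD mice. Both groups were labelled day 7, and the source labels name 7 Tg and 5 non-Tg, taken here as the mice pooled for an array. The sources used here do not say how the cells were isolated or whether the controls were littermates. With 1 array per group no test was possible, so a difference describes these 2 arrays and not the genotypes.

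Values are log2 intensities as deposited, and each log2 ratio is Tg minus non-Tg. A gene passed the level filter if it reached the median of its array (5.43 for Tg, 5.45 for non-Tg) on at least 1 array. A gene that passed and was at least 2-fold apart was counted as higher or lower. The available measure of error comes from the 2 brightest probe sets of 658 genes with at least 2 past the same filter. The ratio of 1 probe set had an SD of 0.302, which includes no variation between mice, pools or amplifications. Some pairs read nearly alike, such as that of Dnajc3, where both ratios were 0.38. Whether the pairs read separate sequence was not tested, so the SD may be too low. Over the 11422 genes past the filter the ratio had a median of 0.01 and an SD of 0.331.

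Aire itself had a level of 7.33 on the Tg array against 6.06 on the non-Tg array, which is a log2 ratio of 1.28. Markers of the labelled cell type were present, as 8 of 8 cortical markers passed the filter, with ratios from 0.05 to 0.37. Thymocyte RNA was present too, with 8 of 9 measured markers past the filter. The brightest was Rag1 at 10.89 (Tg) and 10.96 (non-Tg), while Rag2, at 5.11 and 5.34, was under the filter. The median ratio of the thymocyte markers was -0.07, with a range from -0.49 to 0.18. Markers of other cells also passed, with 6 of 7 measured for medullary epithelium, 4 of 4 for endothelium, 3 of 4 for fibroblasts, 2 of 6 for macrophages and dendritic cells, 1 of 3 for B cells and 1 of 2 for erythroid cells, where 11422 of all 19938 genes did. The widest ratios among these were -0.58 in the macrophage and dendritic cell list and 0.51 in the fibroblast list. The passing B cell marker Pax5 (5.53 in Tg and 5.57 in non-Tg) lay just above the filter. So did the erythroid marker Slc4a1 (5.49 and 5.62), so these 2 do not show that such cells were present. In RNA of more than 1 cell type, fewer cells of a type and less RNA per cell cannot be told apart. The part of each cell type in the EMC signal was not tested.

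The EMC sits in the membrane of the endoplasmic reticulum (ER) and inserts membrane proteins, mainly tail-anchored proteins with a weakly hydrophobic anchor and the first transmembrane segment of some multipass proteins. Its architecture is known from human and yeast complexes. Emc3 and Emc6 form the membrane core that accepts the client segment, and Emc3 belongs with Get1 and Tmco1 to the Oxa1 superfamily of insertases. Mmgt1 and Emc4 lie beside Emc3 and Emc6 in the membrane, and the figures label Mmgt1 as part of the membrane core too. Emc2 is a cytosolic scaffold to which either Emc8 or its paralog Emc9 binds, and Emc1, Emc7 and Emc10 contribute the lumenal domains. In mice, Emc3 is needed in lung epithelium for surfactant proteins and lipids.

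Of the 9 measured subunits, 8 passed the filter, and 1 of these, Emc3, was 2-fold or more lower in Tg. None was 2-fold higher. The background shares, over every gene that passed, were 0.376% lower by 2-fold or more and 0.797% higher. Since Emc3 was chosen by this ratio, nothing is read from its count. Of the other 8 subunits, which had no part in that choice, 7 passed the filter and could be counted. Of these 7, 0 differed by 2-fold or by 1.5-fold. At 1.5-fold the shares of all genes that passed were 4.74% higher and 3.13% lower, so 0 of 7 is near the background.

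Emc3, the insertase subunit, was at 6.63 in Tg and 8.05 in non-Tg. Its log2 ratio was -1.42, so the Tg level was 2.67-fold lower. Both values lay above the filter. The 500 genes past the filter closest to Emc3 in mean level had ratios with an SD of 0.358. Of the 11422 genes, 11 had a lower ratio than Emc3. Such a rank follows from the choice of Emc3 by its ratio, so it is only a description. The gene has 1 probe set, so its ratio has no second reading on these arrays.

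**Figure D1:**
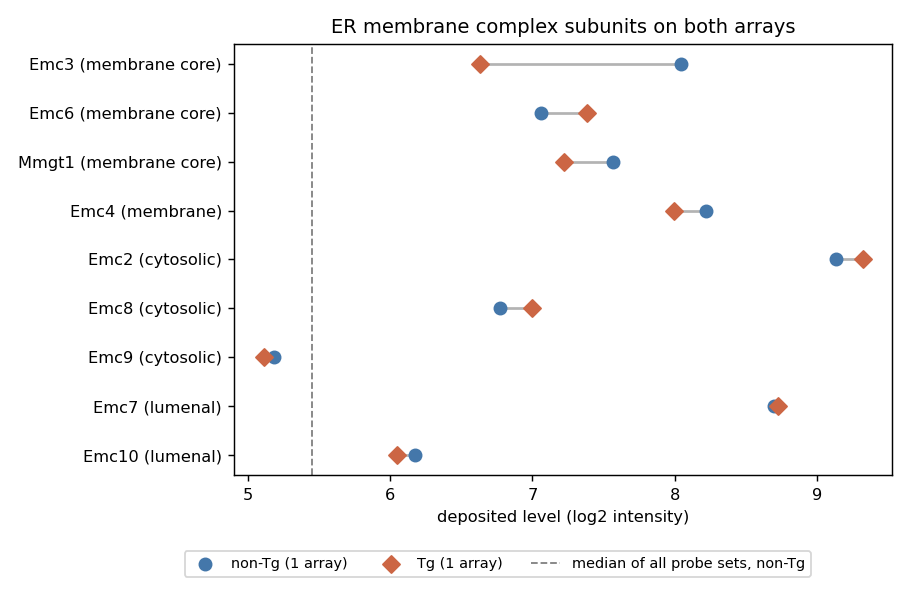
Deposited level (log2 intensity, x axis) of each EMC subunit with its own probe set on the Tg array (diamonds) and the non-Tg array (circles), ordered by place in the complex, with the non-Tg median of all probe sets as a dashed line. Emc3 has the widest gap, 6.63 against 8.05, and Emc9 lies under the dashed line on both arrays; levels of different probe sets are not comparable with each other.

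The promoter of Emc3 is shown with that of Emc4, a partner that carries the same motifs. Emc4 had a ratio of -0.22, the lowest of the 7 listed partners and of the same sign as Emc3. Whether the motifs bear on either ratio was not tested. RefSeq promoters (GRCm38.p6, 250 bases before to 50 after the start) were available for Emc1, Emc3, Emc4, Emc6, Emc7, Emc9 and Emc10. Emc3 is at chr6:113531589-113531888 and Emc4 at chr2:112367978-112368277, both on the minus strand. Capitals mark matches on either strand to CCGGAAG, the core of sites for ETS factors, and to TGACGT, part of the cAMP response element.
Emc3: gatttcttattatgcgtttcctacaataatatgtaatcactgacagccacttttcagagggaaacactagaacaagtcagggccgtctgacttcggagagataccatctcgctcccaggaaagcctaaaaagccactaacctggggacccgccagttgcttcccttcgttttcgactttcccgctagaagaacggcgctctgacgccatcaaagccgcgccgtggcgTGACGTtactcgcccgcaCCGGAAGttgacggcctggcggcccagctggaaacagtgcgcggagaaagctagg
Emc4: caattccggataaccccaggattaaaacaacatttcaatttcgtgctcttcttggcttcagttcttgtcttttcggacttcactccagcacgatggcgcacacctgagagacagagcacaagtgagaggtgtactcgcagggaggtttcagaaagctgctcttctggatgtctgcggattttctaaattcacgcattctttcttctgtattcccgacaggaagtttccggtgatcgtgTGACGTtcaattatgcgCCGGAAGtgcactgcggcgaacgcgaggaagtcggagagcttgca
CCGGAAG was found in 3 of the 7 genes (Emc3, Emc4 and Emc7), against 8.86% of 32851 promoters of the same length. TGACGT was found in Emc3, Emc4 and Emc10, against 7.51%. The TATA box TATAAA was found in 0 of 7, against 13.6%. Matches to different motifs did not overlap in the printed promoters, and the motifs were picked after the sequences had been read, so these shares describe the promoters only.

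The promoters of the subunits were rich in CpG dinucleotides. They held 11 to 28 CpGs each. That of Emc3 held 23 CpGs at a GC content of 54.3%, and that of Emc4 19 at 49.3%, where the median promoter held 7 CpGs at 52.7%. The lowest count was that of Emc9. CCGGAAG and TGACGT each hold a CpG. The background shares of the motifs count promoters and not genes, and they were not matched for CpG count.

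The membrane partners of Emc3 did not share its difference. Emc6, which forms the core with Emc3, was at 7.39 in Tg and 7.06 in non-Tg, a ratio of 0.33, opposite in sign to Emc3. Mmgt1 was at 7.22 and 7.57, with a ratio of -0.35, and Emc4 at 7.996 and 8.219, with a ratio of -0.22. Mmgt1 and Emc4 thus had the sign of Emc3 at a much smaller size. Mmgt1 came nearest to Emc3, and its ratio was still 1.07 above that of Emc3 on the log2 scale.

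Mmgt1 lies on the X chromosome, and some sex-linked genes differed between the pools. Xist, the RNA that silences an X chromosome in females, was at 7.78 in Tg and 6.28 in non-Tg. The Y-linked Eif2s3y was at 6.40 in Tg and 7.36 in non-Tg. Of the other Y-linked genes, Kdm5d had a ratio of -0.08, and Uty, under the filter, was at 4.94 and 5.45. The Y-linked genes thus did not differ to the same degree. The part of the sexes of the pooled mice in the Mmgt1 ratio was not tested.

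The ratios of the cytosolic subunits past the filter were similar in size to that of Emc4 and opposite in sign. The scaffold gene Emc2 was at 9.32 in Tg and 9.13 in non-Tg, a ratio of 0.19. Emc8 was at 7.00 and 6.78, with a ratio of 0.22. Its paralog Emc9 was at 5.12 and 5.19 and did not pass the filter. At such a dim level log2 ratios are compressed, so its ratio of -0.07 says little about the transcript.

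Of the lumenal subunits, Emc7 had the ratio nearest to 0 of all 9 subunits. It was at 8.72 in Tg and 8.70 in non-Tg, a ratio of 0.02, which became -0.01 when the arrays were quantile normalized. Emc10, part of which is also secreted in mice, was at 6.05 and 6.18, with a ratio of -0.13.

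Over the 8 partners measured, 4 ratios lay above 0 and 4 below, with a range from -0.35 to 0.33 and a median of -0.02. Without Mmgt1 the median of the 7 others was 0.02, and over all genes past the filter it was 0.01. The ratio of 6 partners lay within 1 probe set SD of 0, with Mmgt1 and Emc6 just outside. The SD over all genes past the filter was 0.331, near that of a probe set (0.302). Set against the 500 genes past the filter nearest in level, the 7 partners past the filter lay within 1 SD of 0. The ratio of Emc3 was 3.96 times the SD of its own set. Emc9, under the filter, also lay within 1 SD, but its set held only passing genes and had the widest SD, 0.381. The share of all genes within either bound was not computed, so these counts say nothing particular about the partners. The ratios of the partners exceeded that of Emc3 by 1.07 to 1.74 on the log2 scale. The Emc3 side of this gap carries the choice of the gene, so the gap is a description.

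**Figure D2:**
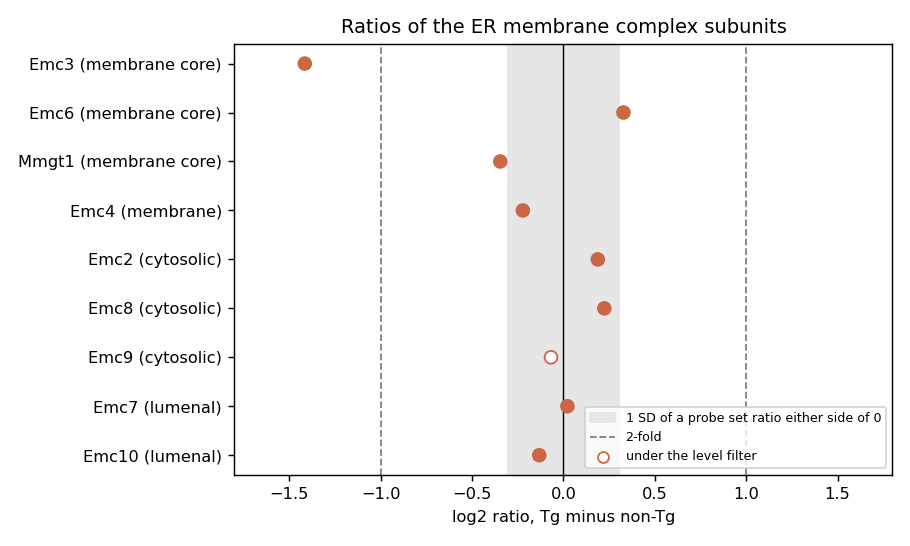
Log2 ratio (Tg minus non-Tg, x axis) of each EMC subunit, with the grey band at 1 SD of a probe set ratio (0.302) either side of 0, dashed lines at 2-fold, and an open point for Emc9, which is under the level filter. Emc3 at -1.42 lies past the 2-fold line, and the other points lie between -0.35 and 0.33.

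**Figure D3:**
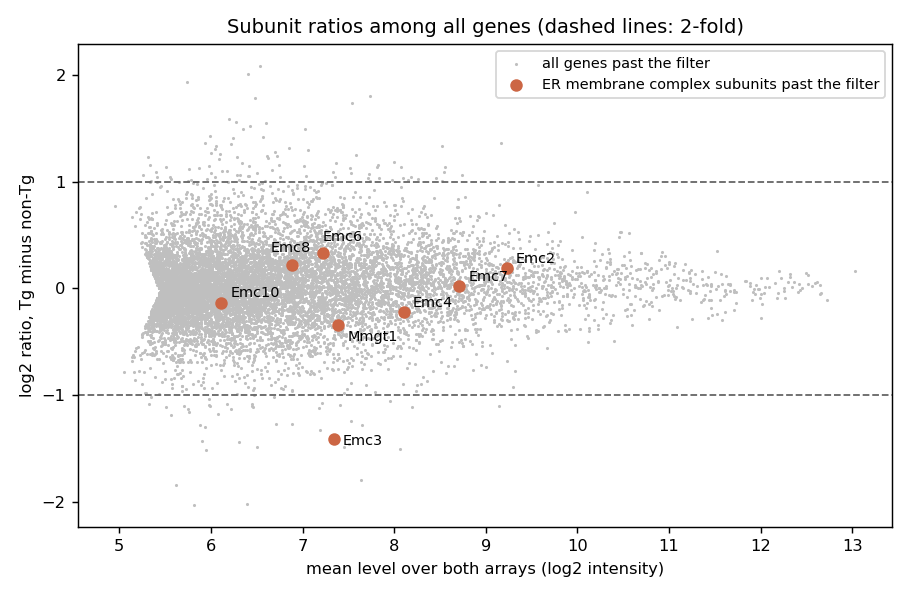
Log2 ratio (y axis) against mean level over both arrays (log2 intensity, x axis) for the 11422 genes past the filter (grey) and the 8 EMC subunits among them (orange), with dashed lines at 2-fold. Emc3 lies among the sparse points under the lower line, and the other 7 lie inside the dense cloud.

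The genes beside Emc3 on its chromosome were read as well, by a choice made after the Emc3 value was known. The 3 protein-coding genes on either side in RefSeq order were Il17rc, Creld1, Prrt3, Fancd2, Fancd2os and Brk1. Of these 6, 3 passed the filter. Brk1, a subunit of the WAVE actin regulator, was at 8.35 in Tg and 8.66 in non-Tg, and its ratio of -0.31 was the lowest of the 6. Il17rc had a ratio of -0.03 and Creld1 -0.13. Under the filter, Prrt3 had a ratio of -0.08 and Fancd2, below the floor in Tg, -0.15. None of the 6 had a ratio above 0. None of the 3 that passed was 2-fold apart, against 1.17% of all genes that passed, so this count is near the background. Fancd2os lay under the floor on both arrays, which sets its ratio to 0.

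The genes most like Emc3 on these arrays were those with the nearest pair of values, by Euclidean distance over the 2 arrays. Cfap57, a cilium gene, was at 6.71 in Tg and 8.20 in non-Tg, at a distance of 0.17. Snora3, annotated as a small nucleolar RNA gene, was at 6.53 and 7.85, at a distance of 0.22. Naa20, the catalytic subunit of an N-terminal acetyltransferase, was at 6.78 and 8.24, at a distance of 0.24. Likeness over 2 arrays is little more than a shared ratio at a shared level. When the 2 probe sets of each gene were averaged, the ratio was -0.81 for Cfap57, -1.31 for Snora3 and -1.46 for Naa20.

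Other genes of membrane protein insertion and folding in the ER were taken from 9 lists. They name 88 genes, of which 82 had a probe set and 80 reached the filter. A 2-fold difference was seen in 0 of these 80, against 1.17% of all genes that passed. The ratios of the 82 lay between -0.92 and 0.85 around a median of 0.03. At 1.5-fold, 5 of the 80 were higher and 2 lower, together 8.75% of the 80, against 7.86% of all genes. The listed genes were thus near the background at either threshold.

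Of the other ER insertases of the Oxa1 superfamily, neither had a ratio like that of Emc3. Get1, which with Caml receives tail-anchored proteins from the cytosolic ATPase Get3, was at 7.72 in Tg and 7.12 in non-Tg, a ratio of 0.60. Tmco1, of the multipass translocon, was at 7.67 and 7.86, a ratio of -0.19. Get3 was at 6.97 and 6.13, with a ratio of 0.84, and Caml had a ratio of -0.03. In this pathway 6 of 7 genes had a probe set, 2 were 1.5-fold higher (Get1 and Get3), 0 were 1.5-fold lower, and the median ratio was 0.19. A list of 3 EMC client genes was read, and only the squalene synthase gene Fdft1 was measured, with a ratio of 0.08. Other clients were not examined.

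The Sec61 channel, through which most secretory and membrane proteins enter the ER, had subunits on opposite sides. Sec61b was at 8.83 in Tg and 9.75 in non-Tg, a ratio of -0.92. Its other probe sets gave -0.81 and -0.65, so 3 of 3 lay below 0, and whether they read separate sequence was not tested. Sec61a1, the pore subunit, was at 7.84 and 7.20, with a ratio of 0.63. Of 10 measured genes of this channel and the associated TRAP complex, 1 was 1.5-fold higher, 1 was 1.5-fold lower, and the median ratio was -0.01. In the multipass translocon the 6 measured genes had a median of -0.16, with Ccdc47 at -0.53 and Nomo1 at 0.49, and 0 were 1.5-fold apart.

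The remaining lists concern targeting to the ER and the processing of new chains. The 7 measured genes of the signal recognition particle and its receptor had a median of 0.03, with Srp19 at -0.38 and the receptor gene Srpr at -0.28. The 5 signal peptidase genes had a median of -0.04, with the catalytic subunits Sec11a at -0.31 and Sec11c at 0.29. Neither list held a gene 1.5-fold apart. The 12 oligosaccharyltransferase genes, which attach N-glycans, had a median of -0.01, with the catalytic subunit Stt3b at -0.65 and Ostc, a subunit of the complex that works at the translocon, at 0.64. Of the 11 that passed the filter, 1 was 1.5-fold higher and 1 was 1.5-fold lower.

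Genes that deal with misfolded proteins lay near 0 as groups. The 17 measured genes of ER-associated degradation had a median of 0.06, and 1 was 1.5-fold higher. That gene was Sel1l, the adaptor of the ubiquitin ligase that removes misfolded proteins, at 8.15 in Tg and 7.29 in non-Tg (ratio 0.85). Derl1, of the same machinery, had a ratio of 0.57. The 18 genes of chaperones and the unfolded protein response had a median of 0.07 and 0 members 1.5-fold apart. The widest were the chaperone gene Hyou1 at -0.45 and the stress sensor gene Atf6 at 0.45, and the main ER chaperone gene Hspa5 had a ratio of 0.19.

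**Figure D4:**
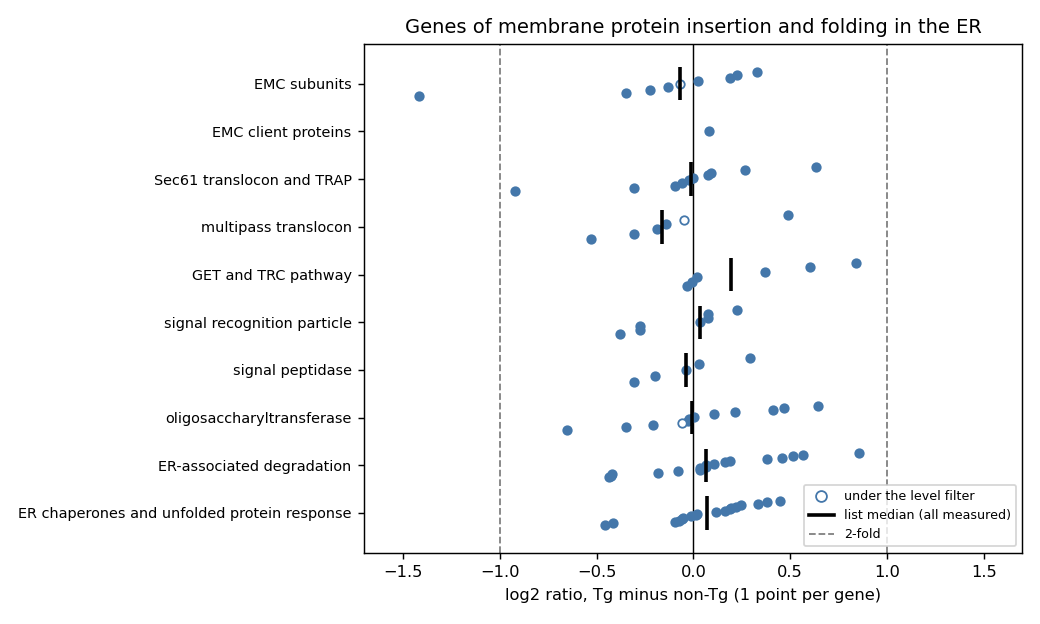
Log2 ratio (Tg minus non-Tg, x axis) of each measured gene in the EMC and in 9 lists of ER genes, 1 point per gene (vertical offsets only separate points), with list medians as black bars, dashed lines at 2-fold, and open points for genes under the level filter. Emc3 is the only point past a dashed line, and the next lowest is Sec61b at -0.92.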

How the data were processed

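Per the labels' protocols, each array received biotin-labelled cDNA (5.5 µg) amplified from 400 pg of column-purified RNA with the Ovation One-Direct kit. The values the authors deposited are log2 intensities of 28856 probe sets, between 4.22 and 13.7, a range from which the log base was inferred. The sources used here do not state the background correction, normalization, summarisation or build.

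Genes were named from GEO's platform annotation: 21789 probe sets had 1 symbol, 1621 had several and 5446 had none here. By gene ID, 21698 of the 21789 were found in RefSeq (GRCm38.p6), used for names, gene order and promoters. The probe set with the highest mean stood for a gene. Values under the 25th percentile of all values (4.80) were raised to it before the ratio. The number of arrays limits the precision, and no p-value was computed. No scan dates or batches were available to examine.

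The members and lists were chosen with earlier results of these data known. All EMC subunits were named. Of each other list, up to 4 members beyond 2-fold or, with none, the 2 widest past the filter were named, and the 3 genes nearest to Emc3; Tmco1, Caml, Hspa5 and the chromosome neighbours were chosen after their values were seen. The calls were tested on simulated data. Alternatives were other floors, filters, probe set rules, scalings and a 1.5-fold threshold. The software was pandas 2.3.3 and numpy 2.4.6 under Python 3.11.15, with plots by matplotlib 3.10.9.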

Additional observations from a re-analysis of the deposited data

Results flagged for a closer look

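The probe set that the annotation gives to both Emc1 and Ubr4 entered no comparison, and it was above the level of the control array by more than 1 SD of a probe set ratio. Its level was 6.40 on the Tg array against 6.03 on the non-Tg array, which is a log2 ratio of 0.37. Which gene the signal came from was not tested. The ratios of all genes past the filter had an SD of 0.331, and the share of genes this far from 0 was not computed.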

How the results depend on the processing

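The Emc3 ratio was -1.39 with median-centred arrays and -1.45 under quantile normalization. It stayed at -1.42 under no floor or a floor at the 40th percentile, no filter or one at the 75th percentile, and averaged probe sets. These latter settings could not move it, since both values lay above the floors, a filter does not enter a ratio, and Emc3 has 1 probe set. Under all of these settings, 1 EMC subunit was lower and 0 were higher, and the partner median ranged from -0.03 to 0.00. The widest move of any subunit ratio or list median was 0.064, from 0.08 to 0.02 under quantile normalization. It was that of Fdft1, the only measured gene of the EMC client list. Of the subunits, Emc7 changed sign, under quantile normalization only. At the 75th percentile Emc10 no longer passed the filter. At 1.5-fold the counts over all genes were 541 higher and 357 lower, in place of 91 and 43, and those of the ER lists were 5 higher and 2 lower, in place of 0 and 0. Averaging probe sets left each EMC value as it was, since each subunit had 1 probe set. No paired analysis was possible because each genotype had 1 array. Dim transcripts near the floor, such as Emc9, limit what a ratio can show.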
